A study of Mus musculus with 5 samples.

Results

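The genes described here are 40 parts of the machinery that brings secreted and membrane proteins into the endoplasmic reticulum (ER), folds and glycosylates them, and sends them on, chosen by gene symbol from 14161 genes listed in any library. They were compared in mesenchymal stem cells, marrow stroma that adheres to plastic and can give rise to skeletal tissues and fat. The cells were cultured from the femurs of C57BL/6 mice aged 6 to 8 weeks in α-MEM with 12% serum and taken at passages 1 to 3. The groups were Bmal1-knockout cells (3 libraries) and wild type cells (2 libraries). BMAL1, the product of the gene Arntl, is the partner of CLOCK at the core of the circadian clock, and the comparison asks which genes depend on it. For the kind of deletion and the number of animals or cultures behind the libraries, nothing is stated in the sources used here, so p-values measure the spread between these libraries, which may be technical. All 40 members were listed, and by role they comprised 10 translocon and signal peptidase genes, 4 of the oligosaccharyltransferase, 8 chaperones and co-chaperones, 7 disulfide and prolyl isomerases, 6 stress sensors and stress-induced factors, and 5 of ER export and retrieval.

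A protein made for secretion enters the ER through the Sec61 channel, loses its signal peptide to signal peptidase and receives N-linked glycans from the oligosaccharyltransferase while it is still being made. Chaperones, disulfide isomerases and prolyl isomerases then fold it, COPII vesicles carry it to the Golgi, and KDEL receptors bring escaped ER residents back. When unfolded protein builds up, the sensors IRE1, ATF6 and PERK switch on the unfolded protein response, in which XBP1 and cleaved ATF6 raise chaperone genes through the ER stress response element (ERSE) of their promoters. In marrow stromal cells and the osteoblasts they form, a major cargo is procollagen, which needs its own set of prolyl isomerases and hydroxylases.

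The ERSE sites of members are shown because they mark which of these genes carry the exact letters of the classic stress-response element just before their start. Copies with any other letter at a fixed position were not searched for, so a gene without a match may still hold such a copy. RefSeq promoters (build GRCm38.p6, the assembly of mm10) were held for 33 of the 40 members, and the 250 bases before each start were searched on both strands. The ERSE, spelled CCAAT, then 9 bases of any kind, then CCACG, was found in 7 of these 33 members (21.2%) and in 35 of 27025 genes with a promoter (0.13%). In the lines that follow each site reads 5′ to 3′ on the strand given, and capitals mark the fixed letters of the element.
Hspa5, chr2:34772025-34772043, plus strand: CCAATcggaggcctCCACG
Calr, chr8:84847075-84847093, plus strand: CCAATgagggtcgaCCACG
Hsp90b1, chr10:86705638-86705656, minus strand: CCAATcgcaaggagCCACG
Hsp90b1, chr10:86705533-86705551, plus strand: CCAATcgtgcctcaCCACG
Canx, chr11:50325800-50325818, minus strand: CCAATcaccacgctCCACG
Pdia6, chr12:17266491-17266509, plus strand: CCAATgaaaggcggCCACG
Dnajc3, chr14:118937827-118937845, plus strand: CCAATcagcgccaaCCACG
Creld2, chr15:88819520-88819538, minus strand: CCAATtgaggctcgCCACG

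A second form, ERSE-II (ATTGG, 1 base of any kind, CCACG), was found in 1 member, Herpud1, and in 10 of the 27025 genes (0.037%). The E-box CACGTG, the letters that BMAL1 and CLOCK bind, was found in Ssr1, Calr and Dnajb9, that is 9.09% of the 33 members, against 6.86% of all genes with a promoter, and it overlapped none of the ERSE sites. A match is a description of letters, not a site of binding. The 250 bases before the start are printed for 4 members, of which Calr and Hspa5 hold the element, and Pdia3 and Fkbp9, both of which rose in the knockout, had no match in this window. Each reads 5′ to 3′ on the gene's own strand, with the fixed letters of the ERSE in capitals (on the Calr strand the element is read in reverse).
Calr, chr8:84846932-84847181, minus strand: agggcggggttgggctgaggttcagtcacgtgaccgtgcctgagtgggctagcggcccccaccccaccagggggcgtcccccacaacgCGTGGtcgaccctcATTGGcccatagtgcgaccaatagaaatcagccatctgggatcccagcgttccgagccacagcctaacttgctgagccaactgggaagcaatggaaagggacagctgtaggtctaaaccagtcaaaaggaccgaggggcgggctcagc
Hspa5, chr2:34771840-34772089, plus strand: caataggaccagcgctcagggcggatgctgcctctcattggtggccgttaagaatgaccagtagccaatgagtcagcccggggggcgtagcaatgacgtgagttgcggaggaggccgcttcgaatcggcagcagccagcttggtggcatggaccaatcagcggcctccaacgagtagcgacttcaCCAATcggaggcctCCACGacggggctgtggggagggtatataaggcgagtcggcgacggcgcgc
Pdia3, chr2:121413652-121413901, plus strand: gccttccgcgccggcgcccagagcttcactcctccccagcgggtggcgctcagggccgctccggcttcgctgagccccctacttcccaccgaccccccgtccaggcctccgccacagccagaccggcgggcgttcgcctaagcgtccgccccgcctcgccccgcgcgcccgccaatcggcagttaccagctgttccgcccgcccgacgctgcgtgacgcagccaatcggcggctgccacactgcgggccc
Fkbp9, chr6:56831809-56832058, plus strand: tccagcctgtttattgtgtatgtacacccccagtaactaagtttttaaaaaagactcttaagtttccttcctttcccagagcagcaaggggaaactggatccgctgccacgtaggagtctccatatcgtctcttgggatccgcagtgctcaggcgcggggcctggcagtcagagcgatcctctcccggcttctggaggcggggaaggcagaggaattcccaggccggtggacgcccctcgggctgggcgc

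The libraries were shallow, with 211623 to 281990 expected counts each, so that a count of 0 in a library allowed up to 12.1 to 15.9 CPM (3 counts; counting error only). CPM are counts per 1000000 counts of tested genes after TMM scaling, the scale of all levels here unless FPKM is named. Counts of Arntl itself were 4, 1 and 2 (knockout) and 5 and 0 (wild type), too few to check the labels. Among markers of the cells such a culture could hold, 6 of 15 tested stromal genes were higher and 1 lower in the knockout, and 9 of 18 tested macrophage genes were lower (5 with DESeq2), where 8.19% of all tested genes were higher and 8.14% lower. Summed stromal markers came to 13880 to 14720 CPM in the knockout and 6441 to 6484 in the wild type, and summed macrophage markers to 11350 to 12520 and 18250 to 18730 CPM. Of the stromal sum, Col1a1, Col1a2 and Col3a1 alone held 9334 to 9969 CPM in the knockout and 3340 to 3582 in the wild type. Lyz2, the macrophage lysozyme, had 1374 to 2331 counts in every library, so macrophage transcripts were abundant in cultures labelled as stem cells. Plasma cells are rich in ER, and of 7 listed plasma and B cell markers 1 was tested, Sdc1, and not called (log2 fold change 0.25, adjusted p = 0.656); the list summed to 128 to 202 CPM in knockout libraries and 103 and 181 in wild type libraries, with Jchain and Mzb1 at 0 to 4 counts. Of 7 listed endothelial markers 2 were tested and none was called, with sums of 128 to 202 and 175 to 211 CPM. In such bulk samples fewer cells of a type and less RNA per cell cannot be told apart, and the part of these markers in the differences that follow was not tested.

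Members of the ER machinery were mostly somewhat higher in the knockout, and few of them passed the test. Of the 40, 29 had enough counts to be tested, and 4 rose, Fkbp10, Fkbp9, Pdia3 and Calr, while none fell (edgeR quasi-likelihood test, Benjamini-Hochberg adjusted p under 0.05). Over all 3710 tested genes 8.19% were higher and 8.14% lower, and 4 of 29 is 13.8%. At an unadjusted p under 0.05, 7 of the 29 passed, all 7 with higher knockout levels, against 27.6% of all tested genes in either direction. DESeq2 and limma-voom also put none lower. However, DESeq2 gave no adjusted p for Spcs2, Atf6 and Edem1, whose fitted values were below 0, so it could not call them. The fitted log2 fold change was above 0 for 24 of the 29 members and for 50.5% of all tested genes, and its median was 0.35 in members and 0.01 in all tested genes. All knockout libraries lay above both wild type libraries for 14 of the 29 members (21.2% of all tested genes), and below them for 1, Edem1 (21.6%). The count of 4 was not stable. Without knockout 3 it was 2, where 28 members were fitted and 228 of 3306 genes were higher. With limma-voom it was also 2, beside 234 of 3710 genes higher. DESeq2 gave 2 as well, beside 170 higher of 2626 genes with an adjusted p. The number of all genes called thus moved with the setting too. Leaving out wild type 1 or 2 leaves 1 library in that group, and the median log2 fold change of members was then 0.41 or 0.34.

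**Figure D1:**
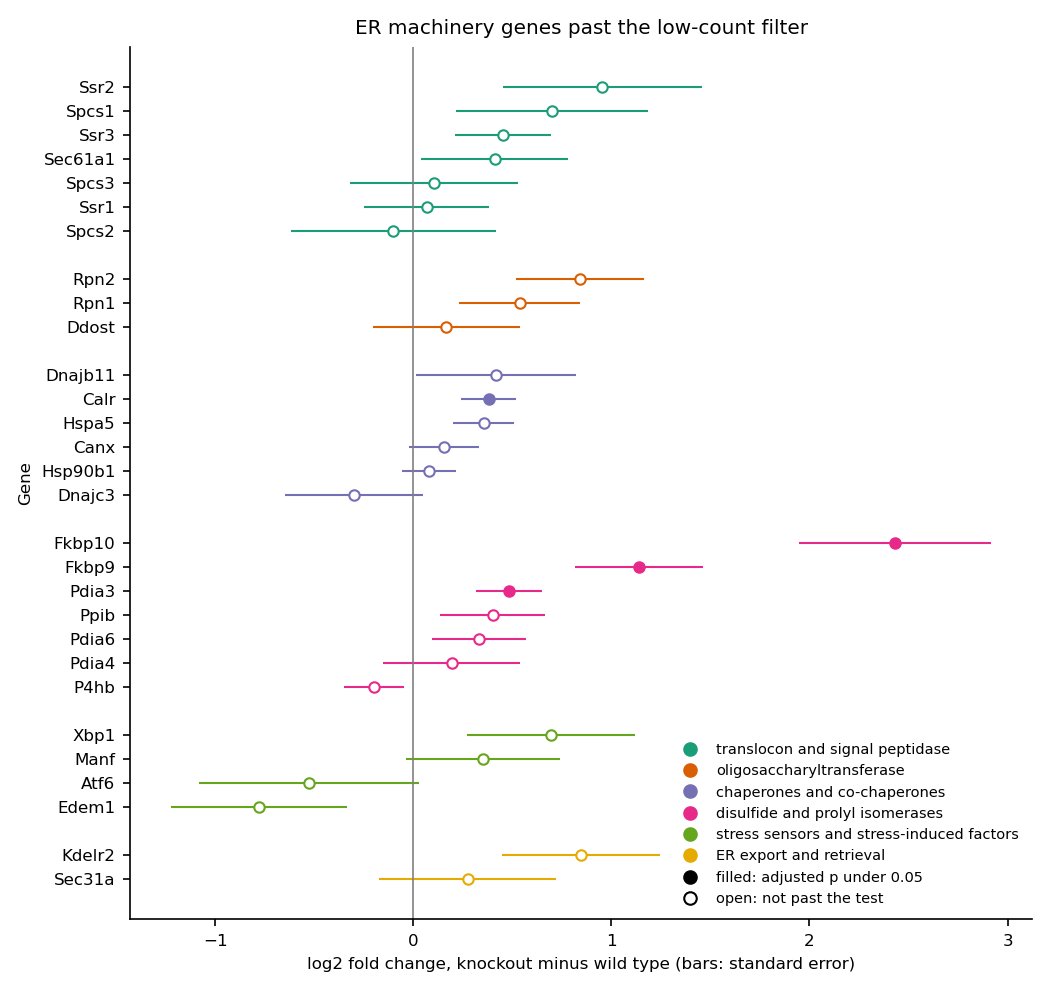
Fitted log2 fold change (x axis, knockout minus wild type, bars are standard errors) of the 29 tested members, grouped by role on the y axis. Filled points passed the test: Fkbp10, Fkbp9, Pdia3 and Calr; 24 of the 29 points lie above 0.

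Summed over all 40 members, the level was 7322, 6517 and 6628 CPM in knockout 1, 2 and 3 and 5675 and 5586 CPM in wild type 1 and 2. Every knockout library lay above both wild type libraries, and the ratio of the means was 1.21. Leaving out the 4 genes that rose, the other 36 members summed to 4811 to 5472 CPM against 4379 and 4440, a ratio of 1.14. Long and abundant genes weigh most in such sums. By role, the knockout sums lay above both wild type sums for the translocon and signal peptidase (ratio 1.25), the chaperones (1.16), the isomerases (1.24) and ER export and retrieval (1.52). For the chaperones and the isomerases this separation rested on the called genes. Without Calr in the first and Fkbp10, Fkbp9 and Pdia3 in the second, the knockout and wild type sums overlapped. The groups overlapped for the oligosaccharyltransferase, at 295 to 490 CPM against 258 and 314 (ratio 1.43). They also overlapped for the stress sensors and stress-induced factors, at 222.5 to 317 CPM against 240 and 271 (ratio 1.07).

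**Figure D2:**
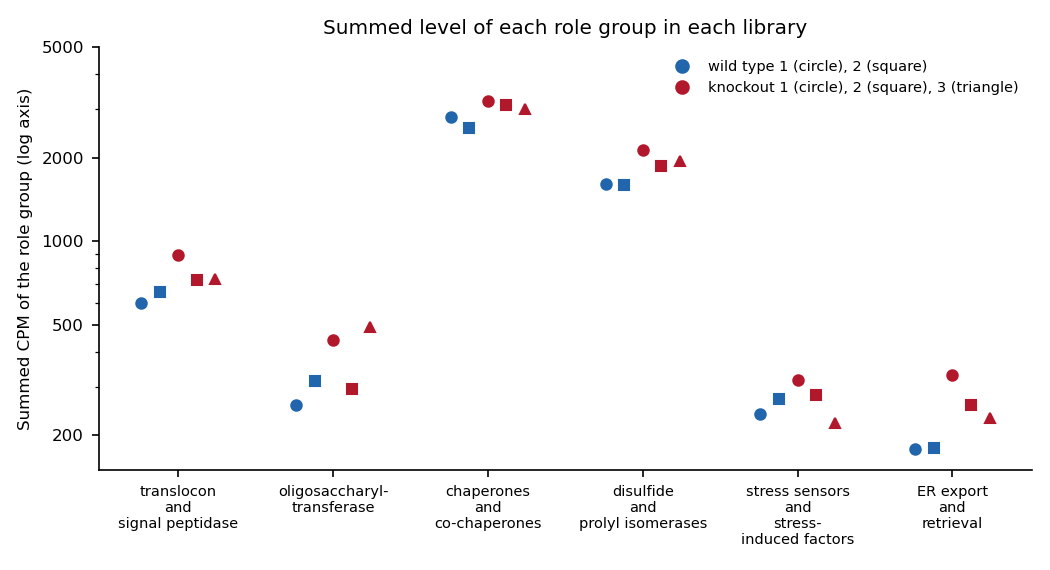
Summed CPM of each role group (y axis, log scale) in each library, with wild type in blue and knockout in red. The isomerases, with the called Fkbp10, Fkbp9 and Pdia3 included, stood at 1863 to 2133 CPM in the knockout and 1600 to 1602 in the wild type. The stress genes overlapped.

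The translocon and signal peptidase genes, through which the nascent chain enters and is cut, gave no call: 7 of 10 were tested, and 0 passed with edgeR, DESeq2 or limma-voom, nor at an unadjusted p under 0.05 with edgeR. DESeq2 gave no adjusted p for Ssr2, Spcs1 and Spcs2 and so could not call them. The median log2 fold change of the tested genes of this group was 0.41. Ssr2, a subunit of the translocon-associated TRAP complex, was at 48.0, 57.1 and 68.8 CPM in knockout libraries and 37.6 and 21.3 in wild type libraries. These groups did not overlap, on counts of 4 to 17 per library, and the log2 fold change was 0.95 (SE 0.50, adjusted p = 0.197). Ssr3, another TRAP subunit and the one with the most counts of this group, was at 274, 290 and 210 CPM against 174 and 202 (0.45, SE 0.24, adjusted p = 0.206). Its lowest knockout library lay just above its highest wild type library. Spcs1, a small subunit of signal peptidase, was at 81.7, 47.5 and 44.5 CPM against 23.5 and 47.8, which overlap (0.70, adjusted p = 0.356). Sec61a1, the pore of the channel, was at 125, 80.8 and 85.0 CPM against 70.5 and 74.4 (0.41, SE 0.37, adjusted p = 0.505), and all 3 knockout values lay above both wild type values. Ssr1, Spcs2 and Spcs3 were at 0.07, -0.10 and 0.11. Each of these 3 turned sign in at least 1 leave-one-out fit. Sec61b, Sec61g and Ssr4 were too low to test. Sec61b had 4, 4 and 7 counts in the knockout against 3 and 3, a ratio of 1.51 with an exact Poisson interval of 0.552 to 4.74. Sec61g, the small γ subunit, had 8, 9 and 7 against 6 and 15, a ratio of 0.689 (0.367 to 1.30). Ssr4 had 11, 5 and 5 against 4 and 4, a ratio of 1.58 (0.673 to 4.13).

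The oligosaccharyltransferase, which transfers the glycan to asparagine, was tested in 3 of 4 members, and 0 passed with edgeR, DESeq2 or limma-voom (1 at an unadjusted p under 0.05 with edgeR). Rpn2, ribophorin II, was at 154, 105 and 194 CPM in knockout libraries and 89.3 and 79.7 in wild type libraries. The knockout libraries were spread widely but all lay above both wild type libraries, with a difference of 0.84 on the log2 scale (SE 0.32, adjusted p = 0.0531). Rpn2 passed without knockout 2 (1.05, adjusted p = 0.0324) and with a minimum count of 20 (0.82, adjusted p = 0.0373), and over all alternatives its adjusted p ranged from 0.0324 to 0.331. Rpn1, ribophorin I, was at 120, 124 and 206 CPM against 108 and 101 (0.54, SE 0.31, adjusted p = 0.247), with knockout 3 far above the other libraries. Ddost, the OST48 subunit, was at 135, 47.5 and 80.9 CPM against 56.4 and 101 and overlapped fully (0.17, adjusted p = 0.819). Dad1, the smallest of these subunits, had 7, 4 and 2 counts against 1 and 6 and was too low to test. Its ratio was 1.12 (exact Poisson interval 0.415 to 3.31). Among the 40 members 9 have at least 100 exon bases on the strand opposite another gene's exons, including Sec61a1 (549 bases, Gm44170), Ssr2 (239, Gm10704), Spcs1 (252, Glt8d1), Hsp90b1 (415, 1810014B01Rik) and Manf (312, 4930524O07Rik and Dcaf1). Exons of Rpn2 lie opposite exons of Mroh8 over 242 bases, and those of Rpn1 opposite Mir6376 over 131 bases, and such reads cannot be told apart without a stated strand setting.

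Of the chaperones and co-chaperones 6 of 8 were tested; 1 rose and 5 did not pass (median 0.25). Calr, calreticulin, the calcium-binding lectin that holds glycoproteins during folding (Entrez gene 12317, chromosome 8, 84842088 to 84846931, mm10), rose from 742 and 691 CPM in the wild type to 966, 860 and 975 in the knockout. The groups did not overlap, and the means were 717 ± 36.3 (SD, n = 2) and 934 ± 63.7 (n = 3), a difference of 0.38 on the log2 scale (SE 0.14, adjusted p = 0.0399). Calr lay close to the threshold, and its call was lost when knockout 3 (0.35), wild type 1 (0.42) or wild type 2 (0.33) was left out, with RLE scaling (adjusted p = 0.0519), with DESeq2 (0.0964), with limma-voom (0.0535), with limma on FPKM (0.126) and without a filter on low counts (0.123). Over all alternatives its adjusted p ranged from 0.0218 to 0.404.

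Hspa5, the Hsp70 chaperone BiP and the usual readout of ER stress, was at 692, 632 and 599 CPM in knockout libraries and 550 and 447 in wild type libraries. All knockout values lay above both wild type values, the closest pair being knockout 3 and wild type 1, and the log2 fold change was 0.35 (SE 0.16, adjusted p = 0.105). Canx, the membrane-bound relative of calreticulin, was at 480, 428 and 413 CPM against 371 and 420 (0.16, SE 0.18, adjusted p = 0.609) and overlapped. Dnajb11, the BiP co-chaperone ERdj3, was at 72.1, 80.8 and 76.9 CPM against 65.8 and 47.8 (0.42, SE 0.40, adjusted p = 0.545), with separate groups on 9 to 19 counts. Hsp90b1, the ER Hsp90 GRP94, was at 0.08 (SE 0.14, adjusted p = 0.752). Its standard error was the smallest of the 29. Dnajc3, the BiP co-chaperone p58IPK, was at -0.30 (adjusted p = 0.621), with 8 to 31 counts scattered within both groups. Dnajb9, the co-chaperone ERdj4 that XBP1 induces, had 4, 5 and 4 counts against 7 and 6, a ratio of 0.602 (0.257 to 1.41). On these few counts every knockout library lay below both wild type libraries. Sdf2l1, a stress-induced partner of these co-chaperones, had 4, 2 and 2 counts against 4 and 10, a ratio of 0.344 (0.125 to 0.879, counting error only) that rests on wild type 2.

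**Figure D3:**
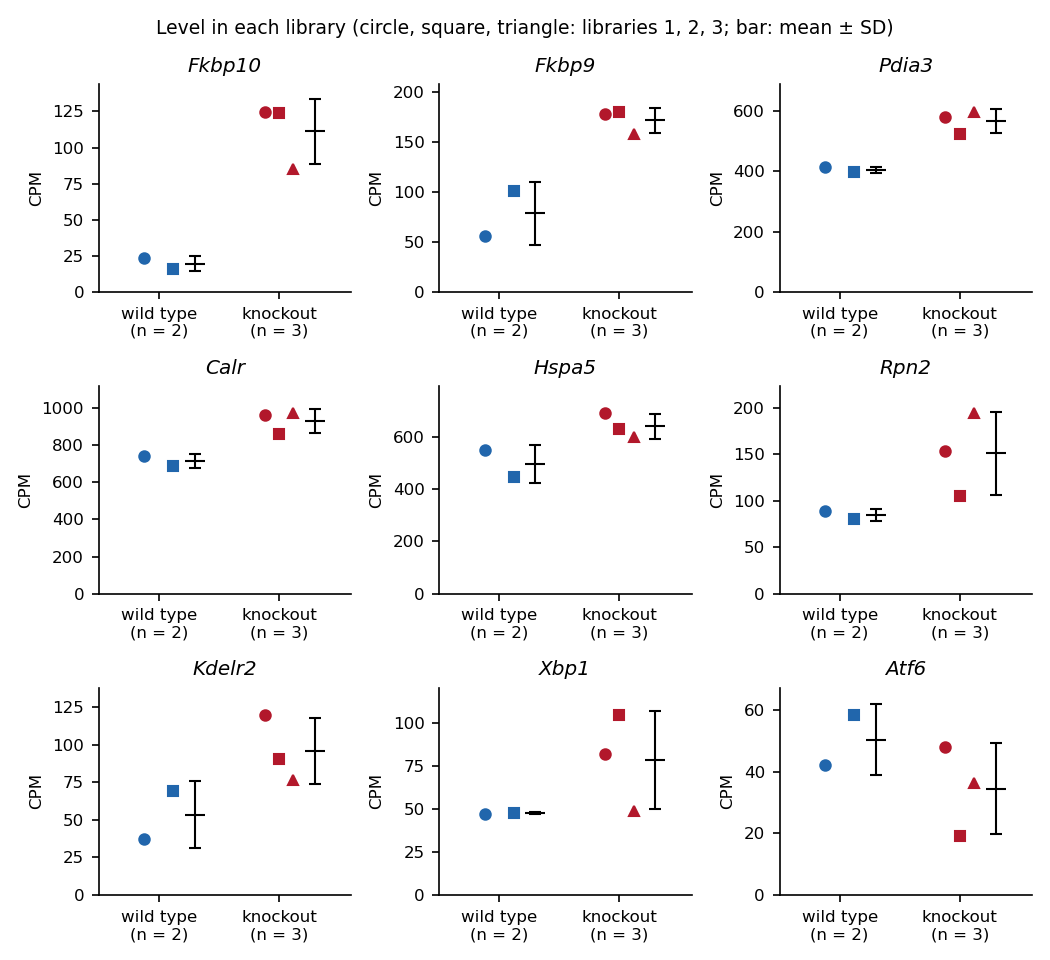
CPM (y axis, from 0) of 9 members in each library, wild type in blue and knockout in red, with the mean and SD beside the points. Fkbp10 was at 85.0 to 125 CPM in the knockout against 15.9 to 23.5, whereas Atf6 overlapped.

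The disulfide and prolyl isomerases held 3 of the 4 calls: all 7 were tested, and Fkbp10, Fkbp9 and Pdia3 rose (median 0.40). Fkbp10, the ER prolyl isomerase FKBP65 that acts on procollagen and is mutated in osteogenesis imperfecta (Entrez gene 14230, chromosome 11, 100415694 to 100424840), held 26, 26 and 21 counts in knockout against 5 and 3 in wild type libraries. Its level was 125, 124 and 85.0 CPM against 23.5 and 15.9, and the lowest knockout library lay far above the highest wild type library. The means were 111 ± 22.7 (SD, n = 3) and 19.7 ± 5.34 (n = 2), and the fitted fold change was 5.40, or 2.43 on the log2 scale (SE 0.48, adjusted p = 1.3e-05). Fkbp10 passed with each library left out (2.20 to 2.73) and lost its call with limma-voom only (2.30, adjusted p = 0.0782), the highest of its adjusted p over all alternatives, the lowest being 1.2e-05. Of its exon bases 193 lie opposite Nt5c3b.

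Fkbp9, the related ER isomerase FKBP63 (Entrez gene 27055, chromosome 6, 56832059 to 56879360), held 37, 38 and 39 counts in knockout against 12 and 19 in wild type libraries. Its level was 178, 181 and 158 CPM against 56.4 and 101, with no overlap, a fitted 2.20-fold rise, 1.14 on the log2 scale (SE 0.32, adjusted p = 0.00468). The size depended on which wild type library was kept, 0.74 without wild type 1 (adjusted p = 0.307) and 1.59 without wild type 2 (adjusted p = 0.00939), the call was also lost with limma on FPKM (1.11, adjusted p = 0.0520), and over all alternatives the adjusted p ranged from 0.0032 to 0.307. Pdia3, the disulfide isomerase ERp57 that works with calreticulin and calnexin (Entrez gene 14827, chromosome 2, 121413902 to 121438687), was at 581, 523 and 599 CPM in knockout libraries and 413 and 399 in wild type libraries. The groups did not overlap, and the means were 568 ± 39.8 (SD, n = 3) and 406 ± 10.5 (n = 2), a fitted 1.40-fold rise, 0.48 on the log2 scale (SE 0.17, adjusted p = 0.0263). Its call was lost when knockout 3 (0.44), wild type 1 (0.49) or wild type 2 (0.45) was left out, with DESeq2 (0.50, adjusted p = 0.0929), with limma on FPKM (adjusted p = 0.120) and without a filter on low counts (adjusted p = 0.0904), within a range of 0.0194 to 0.273 over all alternatives.

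Other isomerases did not pass. Ppib, cyclophilin B, which forms the collagen prolyl 3-hydroxylation complex with Crtap and P3h1, was at 183, 204 and 239 CPM in knockout libraries and 207 and 106 in wild type libraries (0.40, SE 0.26, adjusted p = 0.324). Wild type 1 lay among the knockout libraries, and 825 exon bases of Ppib lie opposite Snx22. Pdia6, the isomerase that binds BiP, and Pdia4, ERp72, were at 0.33 and 0.19. P4hb, protein disulfide isomerase itself and the β subunit of collagen prolyl 4-hydroxylase, was at 658, 518 and 518 CPM against 639 and 654, and its log2 fold change was -0.20 (SE 0.15, adjusted p = 0.411). It was the only isomerase of the 7 with a fitted value below 0.

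Stress sensors and stress-induced factors gave no call with edgeR, DESeq2 or limma-voom, nor at an unadjusted p under 0.05 with edgeR. Of the 6, 4 were tested, 2 with fitted values above 0 and 2 below (median -0.09). Those below, Atf6 and Edem1, had no adjusted p in DESeq2 and so could not be called by it. Xbp1, the transcription factor that IRE1 activates by splicing, was at 81.7, 105 and 48.6 CPM in knockout libraries and 47.0 and 47.8 in wild type libraries. Knockout 3 lay just above the wild type and the other knockout libraries were higher, giving 0.70 (SE 0.42, adjusted p = 0.282). Gene-level counts do not separate its spliced from its unspliced form. Atf6, the membrane-bound sensor cut in the Golgi, was at 48.0, 19.0 and 36.4 CPM against 42.3 and 58.5 (-0.53, SE 0.55, adjusted p = 0.584), and its groups overlapped on 4 to 11 counts. Edem1, the lectin that hands misfolded glycoproteins to degradation, was at 52.9, 33.3 and 32.4 CPM against 56.4 and 79.7. It was the 1 tested member with every knockout library below both wild type libraries, at -0.78 (SE 0.44, adjusted p = 0.248). Manf, a small secreted survival factor induced by ER stress, was at 86.5, 80.8 and 80.9 CPM against 79.9 and 47.8 (0.35, SE 0.39, adjusted p = 0.601), and only wild type 2 stood apart. Herpud1, an organiser of ER-associated degradation, had 3, 9 and 3 counts against 3 and 7, a ratio of 0.904 (0.380 to 2.25). Creld2, a stress-induced disulfide isomerase, had 7, 0 and 3 counts against 0 and 0. The summed counts, 10 against 0, gave a ratio with a lower exact Poisson limit of 1.35 and no upper limit (counting error only). These counts came from knockout 1 and 3 only, and the groups overlapped at 0. A single wild type library with a count of 0 still allowed 14.1 or 15.9 CPM, beside a knockout mean of 15.3.

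ER export and retrieval was tested in 2 of 5 genes, and 0 passed with edgeR, DESeq2 or limma-voom (1 at an unadjusted p under 0.05 with edgeR). DESeq2 gave no adjusted p for Sec31a and so could not call it. Kdelr2, a receptor that retrieves proteins ending in KDEL, was at 120, 90.3 and 76.9 CPM in knockout libraries and 37.6 and 69.1 in wild type libraries (0.85, SE 0.40, adjusted p = 0.140). The groups did not overlap, knockout 3 and wild type 2 being close. Sec31a, of the outer COPII coat, was at 81.7, 52.3 and 40.5 CPM against 51.7 and 42.5 (0.27, SE 0.45, adjusted p = 0.744) and overlapped. Kdelr3, a related receptor, was too low to test, with 6, 5 and 11 counts against 3 and 0. Its summed counts had a ratio of 4.42 (exact Poisson interval 1.33 to 23.1, counting error only). Kdelr1 had 12, 7 and 10 counts against 7 and 7, a ratio of 1.25 (0.639 to 2.56), and Sec24d, a cargo adaptor of COPII that procollagen export needs, had 9, 12 and 7 against 9 and 6, a ratio of 1.13 (0.581 to 2.27).

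Compared per length, the folding genes were the most abundant of the 40. Mean FPKM (fragments per kilobase of gene and per 1000000 fragments) over the 5 libraries ran from 326 for Calr, 231 for Hsp90b1, 174 for P4hb and 168 for Hspa5 down to 5.24 for Creld2 and 3.91 for Atf6. Calr lay above the next gene, Hsp90b1, in every library, at 356 ± 29.4 FPKM in the knockout and 280 ± 10.8 in the wild type. In the knockout P4hb was at 163 ± 29.1 FPKM, Hspa5 at 184 ± 20.6 and Ppib at 170 ± 18.0. Hspa5 lay above P4hb in each knockout library. It lay below P4hb in both wild type libraries, at 159 and 131 FPKM against 186 and 194. Of the translocon genes Ssr3 stood highest at 58.2 FPKM and Ssr1 lowest at 8.84. Fkbp10 was the 26th of the 40 at 20.8 FPKM, from 5.60 ± 1.45 in the wild type to 31.0 ± 7.03 in the knockout. Fkbp9 went from 19.4 ± 7.98 to 41.3 ± 3.96 FPKM.

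**Figure D4:**
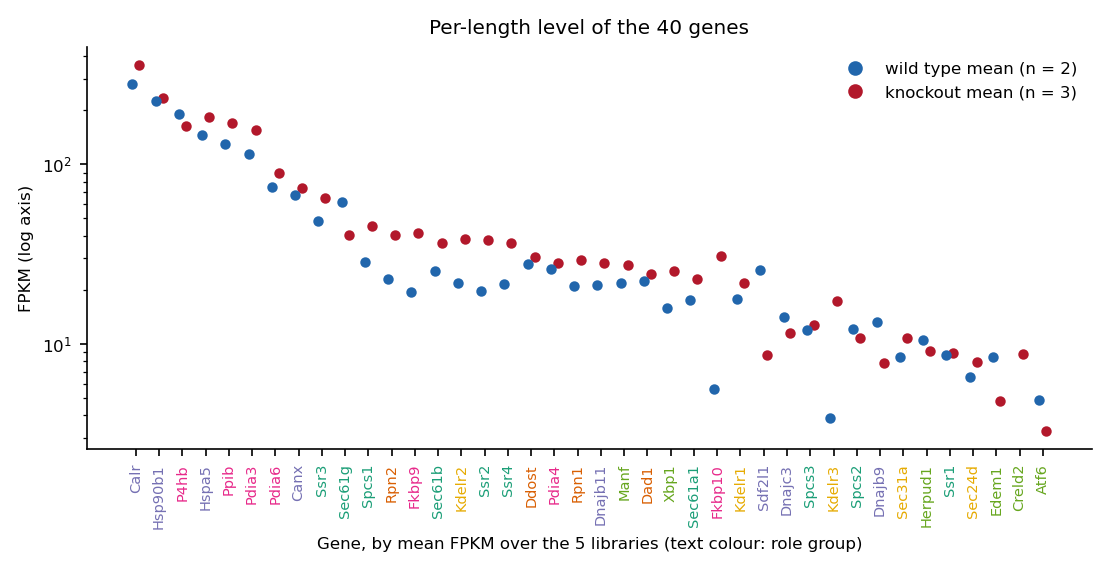
Mean FPKM (y axis, log scale) of each of the 40 members in wild type (blue) and knockout (red) libraries, ordered by the mean over all 5. Calr was highest at 326 FPKM and Atf6 lowest at 3.91; Creld2 has no wild type point because it was listed in neither wild type library.

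The members whose promoters are printed as holding an ERSE were then set beside the others. Those tested, 6 in number, had log2 fold changes of -0.30 to 0.38 with a median of 0.24, and 1 of them, Calr, rose. The 16 tested members with a promoter and no match had -0.78 to 1.14, a median of 0.41 and 2 calls. Fkbp10, Ssr2, Manf, Sec61a1, Atf6, Kdelr2 and Spcs3 had no promoter in the table. These values are a description of chosen genes and were not tested against each other.

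Related genes of the same pathway outside the 40 were given by lists, in which 170 genes were listed and 82 tested: 7 rose and none fell, with a median of 0.22. These 7 are 8.54% of those tested, near the 8.19% of all tested genes that were higher. Genes that modify collagen in the ER held 3 of these 7, from 10 tested and 19 listed (median 0.55). Serpinh1, the collagen chaperone HSP47, held 122, 114 and 122 counts in knockout against 29 and 25 in wild type libraries, a rise of 2.00 on the log2 scale (SE 0.22, adjusted p = 3.3e-18). Plod2, a lysyl hydroxylase of collagen, rose by 1.11 (adjusted p = 0.00342), and Crtap, the partner of Ppib, by 1.54 (adjusted p = 0.0164).

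Elsewhere in the pathway calls were single. Among folding, oxidation and lectin genes 17 were tested and 1 rose, Ppic, cyclophilin C (1.30, adjusted p = 0.0168); Ero1l, the oxidase that recharges the disulfide isomerases, was at -0.63 (adjusted p = 0.0796), with all knockout libraries below both wild type libraries. In N-glycan assembly and transfer 5 were tested and Alg1, an early mannosyltransferase, rose (1.61, adjusted p = 0.00691; 472 exon bases opposite Eef2kmt), while the catalytic subunits Stt3a and Stt3b were at 0.19 and -0.33. Of 8 tested genes of unfolded protein response signalling 1 rose, Nupr1, a stress-induced chromatin protein (1.14, adjusted p = 0.0493), and Atf4, the main effector of PERK, was at -0.57 (adjusted p = 0.250). Asns, the asparagine synthetase that ATF4 induces, was at 0.95 and did not pass. Signal recognition and targeting (11 tested, median 0.41) and ER-associated degradation (11 tested, median 0.27) gave 0 calls with edgeR, DESeq2 or limma-voom, with 2 and 1 genes at an unadjusted p under 0.05 in edgeR. With DESeq2 or limma-voom the lists of Ppic, Alg1 and Nupr1 gave 0 calls too, and collagen modification gave 2 in place of 3. In the coat and ER-Golgi transport list 20 were tested and Copg2, a COPI coat subunit, rose (0.80, adjusted p = 3.9e-11; 912 exon bases opposite Mest).

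The summed machinery was set beside the messages of procollagen, a cargo of the stromal cells. Col1a1, Col1a2 and Col3a1, the chains of type I and III collagen in the stromal marker list, together held 9969, 9379 and 9334 CPM in knockout libraries and 3340 and 3582 in wild type libraries, a ratio of 2.76, beside 1.21 for the 40 ER genes. For every 100 counts of these collagen genes the 40 members held 73.5, 69.5 and 71.0 counts in knockout libraries and 170 and 156 in wild type libraries. The groups lay far apart in this ratio, which moves with the collagen genes. The collagen sum was chosen with its rise known, so it is given as a description with no test.

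**Figure D5:**
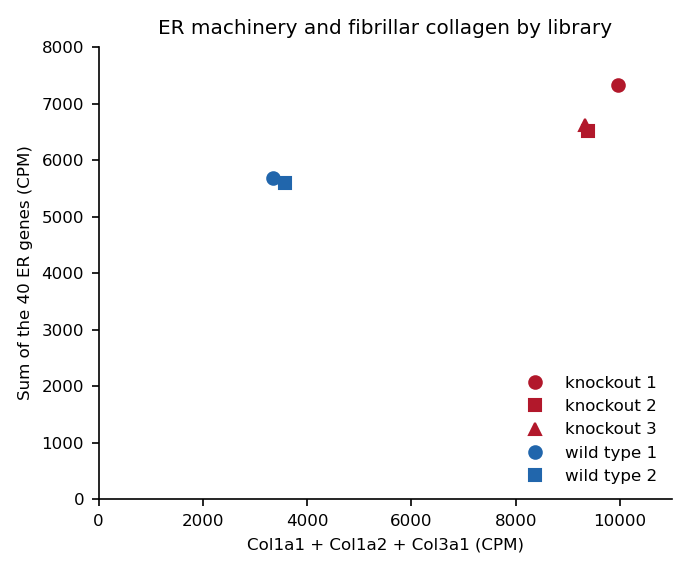
Summed CPM of the 40 ER genes (y axis) against summed CPM of Col1a1, Col1a2 and Col3a1 (x axis), 1 point per library, both axes from 0. Knockout libraries stood at 9334 to 9969 CPM of collagen and 6517 to 7322 of ER genes, wild type libraries at 3340 to 3582 and 5586 to 5675.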

How the data were processed

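For each library the deposited table gives every gene's length in bases, FPKM and expected count, per the file headers. HISAT2, StringTie, Bowtie2, RSEM and the build mm10 are named without roles or versions, per the submitters' processing notes; no strand setting is named there. A gene missing from a table was taken as 0, and counts were rounded; those of all 40 members were already whole within 0.005. Per-length levels are the deposited FPKM.

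Knockout (3 libraries) and wild type (2) were compared in edgeR 4.0.16 (R 4.3.3): filterByExpr (minimum count 10, minimum total 15), TMM, robust quasi-likelihood fits, Benjamini-Hochberg adjustment over all tested genes. SEs came from the F statistic; the code was tested on simulated data. Untested members have ratios of summed counts with exact 95% Poisson intervals. Intervals and limits cover counting error only. Alternatives used DESeq2 1.42.0, limma 3.58.1 and log2(FPKM + 1). Replicates of a group differed beyond sampling noise (chi-square per degree of freedom 1.38 to 1.63). Opposite-strand exon bases came from GENCODE M21.

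Members and lists were chosen with earlier results of these data known. All members are named, with values per library for up to 4 per role group by smallest adjusted p and for Hspa5, Xbp1 and Atf6; up to 3 genes per direction of other lists by the same order.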

Additional observations from a re-analysis of the deposited data

How the results depend on the processing

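The count of 4 members higher in the knockout was 3 with RLE scaling, 4 with library totals only and 5 with a minimum count of 20. That last setting fitted 17 members, and 267 of its 1851 genes were higher. The count was 2 without a filter on low counts, where 231 of 14139 genes were higher. It was 2 with DESeq2, 2 with limma-voom, 1 with limma on log2(FPKM + 1), and 2 to 5 with each knockout library left out. With the replicate number as a block the count was 2, Pdia3 (0.44) and Calr (0.35) losing their calls. Knockout 3 has no wild type library of its number, so it added nothing to the difference in that fit. Without knockout 3, Pdia3 and Calr were likewise at 0.44 and 0.35. The labels do not say that the numbers pair libraries, and same-numbered libraries deviated from their group means with correlations of -0.008 and 0.026. No member was lower in any of these fits. The median log2 fold change of tested members stayed between 0.33 and 0.41, and the ratio of summed levels between 1.17 and 1.24 over the alternatives run for each. Of 361 values of single members under alternatives 326 were counted as keeping direction and side of the threshold and 14, of 7 members, turned sign. The 326 include the DESeq2 values of Ssr2, Spcs1, Spcs2, Atf6, Edem1 and Sec31a. These had no adjusted p in DESeq2, so they kept direction only and could not be called higher or lower there. With the replicate block Ssr1 turned to -0.071 and Pdia4 to -0.045. With libraries left out in turn, Ssr1 ran from -0.19 to 0.39, Spcs2 from -0.49 to 0.34, Spcs3 from -0.10 to 0.34, Ddost from -0.24 to 0.62, Dnajc3 from -0.91 to 0.51, Pdia4 from -0.13 to 0.54 and Sec31a from -0.029 to 0.49. Over all tested genes, 304 were higher and 302 lower; these were 170 and 139 with DESeq2, 171 and 171 with limma on log2(FPKM + 1), 144 and 154 without wild type 1 and 153 and 146 without wild type 2. The cause of these changes was not tested. Standard errors of 0.14 to 0.55 on the log2 scale limit what this depth can show for single members.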

Other observations

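Mia3 and Copg2 were chosen here after their values were seen. Mia3 encodes TANGO1, which loads procollagen into COPII carriers, and its counts were 1089, 1215 and 1503 (knockout) and 1037 and 945 (wild type). Its deposited FPKM of 445 to 533 exceeded that of Calr, the highest of the 40 members. Copg2, a subunit of the COPI coat, was listed at 352 to 603 FPKM, whereas its paralog Copg1 was at 7.80 to 13.3 FPKM. The deposited tables assign 3 transcripts that are not in RefSeq to Mia3 and 1 to Copg2, and the reads behind them cannot be placed from these files. Of the 40 members, 7 also carry such transcripts. The part of these transcripts in the levels was not tested.

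Sums of the lists that hold these genes depended on them. The collagen modification list had a knockout to wild type ratio of summed CPM of 1.25 with Mia3 and 1.76 without it. The coat and ER-Golgi transport list had 1.40 with Copg2 and 1.11 without it.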
